A study of Mus musculus with 8 samples.

Results

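The 5 genes described here encode the plasminogen activators, their receptor and inhibitors that were measured in mouse skin: *Plau*, *Plat*, *Plaur*, *Serpine2* and *Serpinb2*. They were chosen by symbol from the 31053 genes of the count tables, and all 5 were found. Skin of the back of female BALB/c mice aged 14 to 16 weeks was injected subcutaneously with PBMCsec, which holds what mononuclear cells from blood secrete after irradiation, or with vehicle, and 4 libraries of single cells were made per treatment from 4 mm biopsies. The mice carry no engineered allele or transgene in the labels. The labels do not give the time point, the composition of the vehicle or whether the skin was scarred, and they do not say that each library came from its own mouse, so that p-values measure the spread between these libraries. The comparison asks in which skin cells each gene was expressed and whether its level differed after PBMCsec.

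Plasmin, the active form of the circulating zymogen plasminogen, dissolves fibrin and cleaves matrix proteins and latent growth factors. It is released by 2 serine proteases, the urokinase type encoded by *Plau* and the tissue type encoded by *Plat*. Urokinase is held at the cell surface by its GPI-anchored receptor, encoded by *Plaur*. *Serpine2* encodes protease nexin-1, a serpin that blocks thrombin, urokinase and the tissue-type activator, and *Serpinb2* encodes plasminogen activator inhibitor type 2, a serpin found largely inside the cell and known from keratinocytes and activated macrophages. In skin, the system is known for its part in the migration of keratinocytes and the removal of fibrin after wounding.

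In GENCODE M21 on GRCm38, all 5 are protein-coding. *Plau* lies on the forward strand of chromosome 14 (20836660 to 20843385), *Plat* on the forward strand of chromosome 8 (22757727 to 22782844) and *Plaur* on the forward strand of chromosome 7 (24462484 to 24475968). *Serpine2* lies on the reverse strand of chromosome 1 (79794197 to 79861180). *Serpinb2* lies on the forward strand of the same chromosome (107511423 to 107535478) and overlaps the annotated gene *Serpinb10* on the same strand. The identifier of *Serpinb10* is not among the counted genes, so that its reads from the overlap could have been counted as *Serpinb2*. The other 4 of the 5 genes overlapped no annotated gene.

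The RefSeq promoter table (GRCm38.p6) held entries for 3 of the 5 genes, not for *Plau* and *Plat*. The 250 bases before the start of *Serpinb2* and *Plaur* are printed for the gene with the most UMIs of the 5 and for the receptor. The *Serpine2* window overlaps an annotated exon and is not shown. Capitals mark matches on either strand to TGANTCA, the palindromic letters bound by AP-1, to TATAAA, the TATA box, and to GGGCGG, the letters bound by Sp1.
*Serpinb2*, chr1:107511173-107511422, forward strand: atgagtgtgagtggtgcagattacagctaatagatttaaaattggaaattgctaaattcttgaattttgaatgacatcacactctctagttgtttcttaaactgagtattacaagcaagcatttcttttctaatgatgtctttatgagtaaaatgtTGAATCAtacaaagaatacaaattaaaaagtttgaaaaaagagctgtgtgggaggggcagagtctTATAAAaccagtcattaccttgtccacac
*Plaur*, chr7:24462233-24462482, forward strand: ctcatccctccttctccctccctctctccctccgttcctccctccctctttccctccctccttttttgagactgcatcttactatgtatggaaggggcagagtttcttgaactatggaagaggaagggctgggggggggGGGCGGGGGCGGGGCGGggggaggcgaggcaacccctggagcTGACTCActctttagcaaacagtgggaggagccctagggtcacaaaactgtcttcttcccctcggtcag
The *Serpinb2* window held 1 TGANTCA and 1 TATAAA and no GGGCGG, and its GC content was 32.4%. The *Plaur* window held 1 TGANTCA and 3 overlapping or adjoining GGGCGG and no TATAAA, and its GC content was 59.6%. Of all 32851 windows of this length, 6.75% held TGANTCA, 12.4% TATAAA and 32.7% GGGCGG, and the median GC content was 52.4%. These matches describe letters and were not tested for binding.

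The 8 libraries held between 14753926 and 37880651 UMIs, the count of distinct captured RNA molecules. Of 26231 barcodes, 6150 passed the filter on genes, UMIs and mitochondrial counts, with 151 to 1659 cells per library, and the libraries labelled PBMCsec 2, vehicle 1 and vehicle 2 were the smallest. Libraries shared at most 10 barcodes, and 4 barcodes were kept in more than 1 library. The cells fell into 36 clusters, of which 30 were named by marker genes in 13 classes, and 968 cells in 6 clusters stayed unnamed. KCs, HFs, FBs and TCs, the cells that define skin with its immune cells, were found in all 8 libraries. The 5 genes were left out of the genes used for clustering. The classes were rebuilt here and may differ from those of the study.

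In all kept cells, *Plau* gave 5732 UMIs in 1784 cells, *Plat* 6024 UMIs in 1982 cells, *Plaur* 787 UMIs in 450 cells, *Serpine2* 1226 UMIs in 354 cells and *Serpinb2* 27807 UMIs in 1024 cells. At least 1 of the 5 was counted in 3567 of the 6150 cells. Levels are given as CPM, the UMIs of the gene scaled to 1000000 UMIs of the same cells. A UMI tags an RNA molecule at its end, so CPM does not scale with the length of the gene, but capture may differ between genes. Fibroblasts (FBs) held 78.5% of the *Plau* UMIs, 76.8% of the *Plat* UMIs, 29.4% of the *Plaur* UMIs and 40.9% of the *Serpine2* UMIs. Of the 50030775 UMIs of all genes in the kept cells, FBs held 13199208. The *Plaur* share was near this, with 17.5 CPM pooled in FBs and 15.7 CPM in all kept cells. Keratinocytes (KCs) held 80.1% of the *Serpinb2* UMIs. Intervals below are exact 95% Poisson or binomial intervals and cover counting error only.

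**Figure D1:**
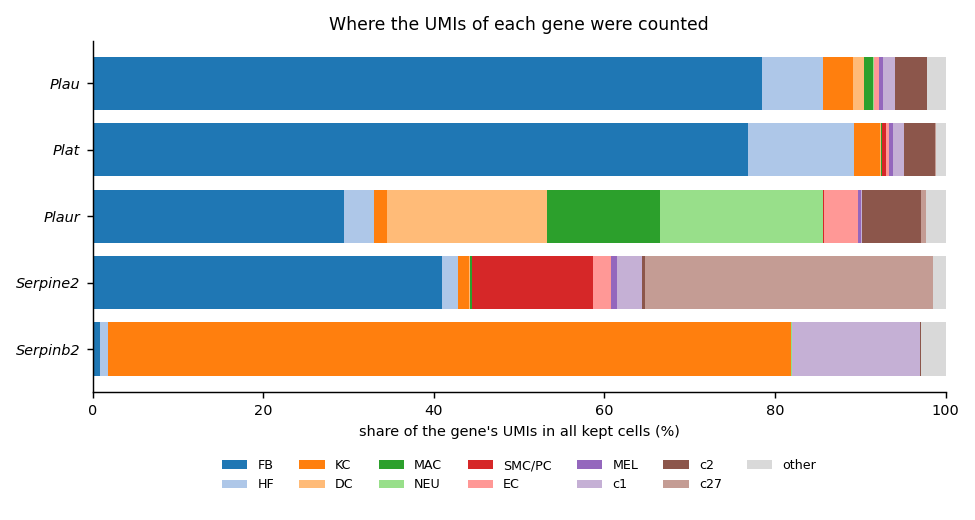
Share of each gene's UMIs in all kept cells (horizontal axis, %) by cell class or unnamed cluster (c1, c2, c27). FBs held 78.5% of *Plau* and 76.8% of *Plat*, and KCs held 80.1% of *Serpinb2*.

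Across classes, both activators were highest in FBs. *Plau* averaged 291 ± 129 CPM in FBs (SD over 8 libraries, range 109 to 458). The mean was 32.3 ± 9.36 CPM in KCs (n = 7 libraries with at least 10 cells), 31.2 ± 7.63 CPM in hair follicle cells (HFs, n = 8), 73.2 ± 19.1 CPM in endothelial cells (ECs, n = 6) and 59.8 ± 37.4 CPM in macrophages (n = 6). Every FB library lay above every HF, KC and EC library for *Plau*, whereas 1 macrophage library (134 CPM) and 1 library of melanocytes (324 CPM) lay within the FB range. KCs and HFs did not differ beyond their spread, nor did ECs and macrophages. Outside the classes with several measured libraries, *Plau* was at 519 CPM pooled (interval 374 to 702) in unnamed cluster 30, 52 cells with a median of only 1180 UMIs, and at 156 CPM (interval 80.6 to 273) from 12 UMIs in 27 mast cells. *Plau* was counted in 63.2% of 1486 FBs and in 1.72% of 696 T cells (TCs). The median depth was 9084 UMIs in FBs and 3289 UMIs in TCs. After every cell was thinned to 1000 UMIs, which left 25.3% of FBs and 0.289% of TCs with *Plau*, the KC share was 3.47% and the HF share 2.58%.

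*Plat* averaged 303 ± 74.6 CPM in FBs (n = 8, range 190 to 439), 51.6 ± 16.9 CPM in HFs (n = 8, range 29.4 to 76.9) and 37.5 ± 17.9 CPM in KCs (n = 7, range 15.7 to 67.8). All FB libraries lay above all HF, KC and EC libraries, and HFs and KCs overlapped. Within HFs, pooled *Plat* reached 140 CPM in cluster 16 and 115 CPM in cluster 14, the clusters marked by *Pthlh* and by *Krt6a*. Melanocytes averaged 138 ± 126 CPM (n = 4), and their highest library (320 CPM) lay within the FB range. Smooth muscle cells and pericytes (SMCs/PCs) had a pooled level of 151 CPM (interval 102 to 216) from 30 UMIs in 37 cells, 11 of them in 1 cell of vehicle 4, and were at 113 CPM without that library (interval 65.8 to 181). PBMCsec 3, the only library with at least 10 SMCs/PCs, measured 39.3 CPM from 2 UMIs. In dendritic cells and macrophages together (DC/MAC), *Plat* was at 2.29 CPM pooled, below the 6.20 CPM of TCs, and is read as background.

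*Plaur*, the receptor, was highest in neutrophils, with a pooled level of 730 CPM (interval 618 to 857) from 150 UMIs in 119 cells. In the 4 libraries with at least 10 neutrophils it measured 466 CPM in PBMCsec 1, 427 CPM in PBMCsec 2, 437 CPM in PBMCsec 4 and 2376 CPM in vehicle 2. The last value came from 15 cells, 1 of which held 25 of the 58 UMIs. With fewer than 10 cells each, the other 4 libraries lay between 574 and 1172 CPM, so that all 8 lay above the highest macrophage library with at least 10 cells, at 160 CPM. *Plaur* was counted in 41.2% of neutrophils (interval 32.2 to 50.6%) at a median depth of only 1537 UMIs. Macrophages averaged 82.9 ± 55.6 CPM (n = 6), DCs 54.9 ± 28.2 CPM (n = 7) and ECs 52.0 ± 34.7 CPM (n = 6), and these 3 classes did not differ beyond their spread. FBs averaged 17.7 ± 6.76 CPM (n = 8). KCs (2.14 CPM pooled), HFs (2.03 CPM) and TCs (2.55 CPM) were alike at a low level. Unnamed cluster 1 was at 0.285 CPM pooled from 1 UMI, and unnamed cluster 23 gave 0 UMIs in 97 cells. The 27 mast cells were at 104 CPM pooled (interval 44.9 to 205) from 8 UMIs.

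*Serpine2* was highest by pooled level in 3 small populations. Unnamed cluster 27, which was led by *Slc26a7*, *Crabp1*, *Wif1* and *Hhip* and had *Serpine2* itself among its 10 leading genes, held 33.8% of the UMIs in 69 cells. Its pooled level was 1218 CPM (interval 1104 to 1342), with 1418 CPM in PBMCsec 1, 443 CPM in PBMCsec 3 and 639 CPM in vehicle 3, the libraries with at least 10 such cells. SMCs/PCs held 14.3% of the UMIs at 882 CPM pooled (interval 756 to 1023), and 97.3% of these 37 cells had a UMI. FB cluster 19, led by *Ednrb*, *Col11a1* and *Lrrc15*, was at 245 CPM pooled, but only 17.9% of its cells had a UMI and 1 cell held 79 of the 225 UMIs. Over libraries this cluster averaged 106 ± 59.1 CPM (n = 4), and melanocytes (83.4 ± 99.4 CPM, n = 4) and ECs (54.6 ± 61.8 CPM, n = 6) overlapped it. No UMI was counted in 119 neutrophils, which allows a level of up to 14.6 CPM (3 counts), and KCs (2.67 CPM pooled) and HFs (1.74 CPM) were near TCs (2.55 CPM).

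*Serpinb2* was the most abundant of the 5 by UMIs and was held almost wholly by the epidermis. KCs averaged 3444 ± 1863 CPM (n = 7), with 80.1% of 492 cells positive, against 3.16% of TCs. After thinning to 1000 UMIs, 55.3% of KCs and 1.01% of TCs remained positive. KC cluster 15, which was led by *Serpinb2*, *Fosl1* and *Krt16*, was at 6211 ± 2189 CPM (n = 6 libraries), and KC cluster 5, led by *Krt1* and *Krt10*, was at 2238 ± 1238 CPM (n = 5). In the 4 libraries with values for both clusters besides PBMCsec 4, cluster 15 lay at 5925 to 8584 CPM and cluster 5 at 1602 to 4196 CPM. In PBMCsec 4 the values were 3247 and 862 CPM, so that cluster 15 was the higher in all 5 libraries with both. The median cell of cluster 15 held 67 UMIs and the highest 380 UMIs, and 57.4% of its cells held at least 50. In cluster 5 the median was 2 UMIs and the highest 340 UMIs, and 14.8% held at least 50. Unnamed cluster 1, led by *Krt14*, *Sox6* and *Wnt10a*, was at 1319 ± 945 CPM (n = 6) and had *Serpinb2* in 91.9% of its 332 cells. Unnamed clusters 23 (*Krt79*, *Cst6*) and 21 (cycling cells, *Mki67*) were at 423 and 378 CPM pooled. The cluster 23 level was carried by vehicle 4 (2253 CPM), where 1 of 14 cells held 288 of the 391 UMIs, while the other 4 libraries with at least 10 cells lay at 25.5 to 104 CPM. Without vehicle 4, as computed after the values were seen, cluster 23 was at 61.5 CPM pooled (interval 46.2 to 80.3). No other class or unnamed cluster was above 53.6 CPM pooled. In DC/MAC, where it might be looked for as a gene of activated macrophages, it was at 7.37 CPM pooled, near the 8.02 CPM of TCs, and is read as background. Macrophages alone were at 8.95 CPM pooled from 9 UMIs, with a thinned share of 1.90%. The interval, 4.09 to 17.0 CPM, holds the TC level. The thinned share was 1.42% in FBs and in HFs, near the TC share, but clusters within these classes differed. FB cluster 22 was at 80.1 CPM pooled (interval 62.1 to 102), with a thinned share of 6.12% and libraries at 0 to 154 CPM. HF cluster 6 was at 67.1 CPM pooled (interval 56.4 to 79.2), with a thinned share of 3.17% and libraries at 3.72 to 224 CPM.

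**Figure D2:**
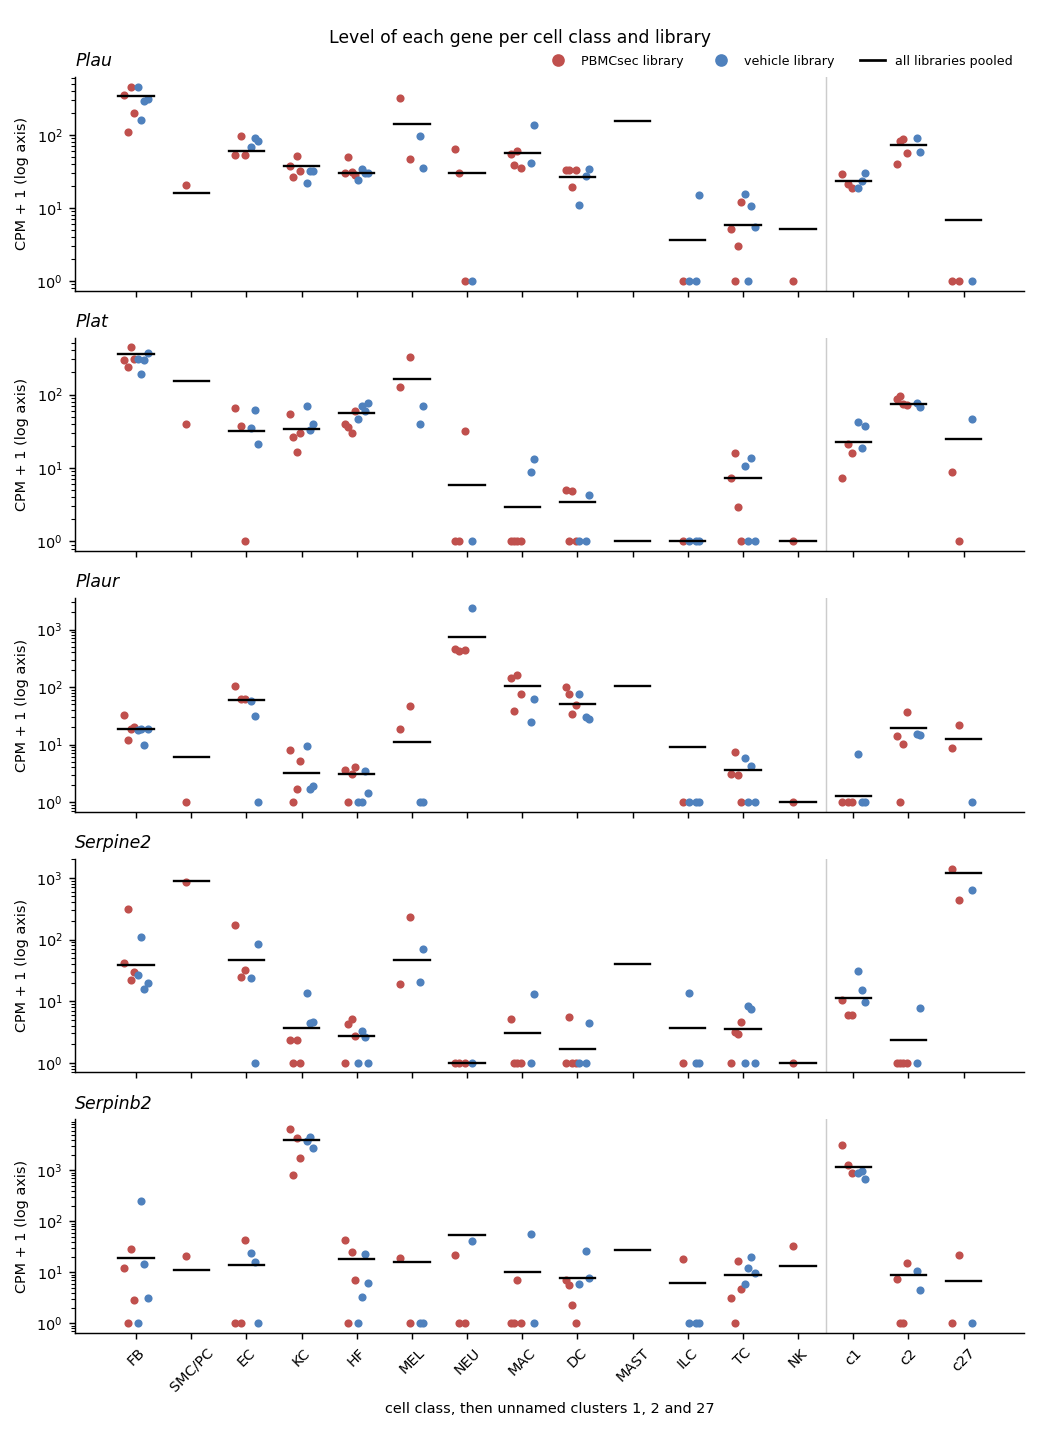
Level of each gene (vertical log axis, CPM + 1) per cell class and for unnamed clusters 1, 2 and 27. Points are libraries with at least 10 cells of the class, coloured by treatment, and lines are the level pooled over all libraries. FB libraries lay at 109 to 458 CPM for *Plau*, KC libraries at 815 to 6420 CPM for *Serpinb2*.

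Within FBs, the activators split the 7 clusters. *Plau* was highest in cluster 22, which expressed *Ptx3*, *Ccl2*, *Cxcl1* and *Il6*, at 732 ± 364 CPM (n = 4 libraries, range 279 to 1127). It followed in cluster 11 (*Mrgprg*, *Pi16*) at 583 ± 154 CPM (n = 5, range 364 to 738) and in cluster 0 (*Sfrp2*, *Fn1*, *C3*) at 375 ± 176 CPM (n = 7, range 48.5 to 594). These 3 neighbours overlapped. Cluster 8 (*Mgp*, *Angptl1*, *Igf1*) was at 223 ± 110 CPM (n = 6). Cluster 10 (*Cxcl12*, *Col15a1*, *Lepr*) was at 28.7 ± 18.5 CPM (n = 6), and all its libraries lay below those of clusters 8, 11 and 22. Clusters 26 and 19 were at 13.7 ± 6.98 CPM (n = 3) and 7.42 ± 8.85 CPM (n = 4). Cluster 22 held 56.1% of its 98 cells from a single library.

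*Plat* fell off less steeply over the same clusters. It was at 680 ± 337 CPM in cluster 22 (n = 4), 450 ± 58.1 CPM in cluster 11 (n = 5), 388 ± 105 CPM in cluster 0 (n = 7) and 299 ± 125 CPM in cluster 8 (n = 6). In cluster 10, where *Plau* was low, *Plat* was at 223 ± 54.5 CPM (n = 6, range 126 to 268), and its lowest library lay above the highest *Plau* library of that cluster at 62.9 CPM. Cluster 26 (*Cpz*, *Col1a1*, *Sparc*) was at 136 ± 94.4 CPM (n = 3) and cluster 19 at 19.6 ± 6.57 CPM (n = 4). Both activators were counted in the same cell in 851 of 1486 FBs (57.3%), *Plat* alone in 298, *Plau* alone in 88 and neither in 249. In clusters 0, 11 and 22, grouped here after their values were seen, both were counted in 675 of 795 cells (84.9%). There *Plau* alone was counted in 46 cells, *Plat* alone in 53 and neither in 21. *Plau* and *Plaur* were counted together in 116 FBs (7.81%), in 14 of 160 macrophages (8.75%) and in 2 of 119 neutrophils. Of all FBs, 63.2% had *Plau* and 12.4% had *Plaur*. Whether genes were counted together more often than their single shares give was not tested.

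**Figure D3:**
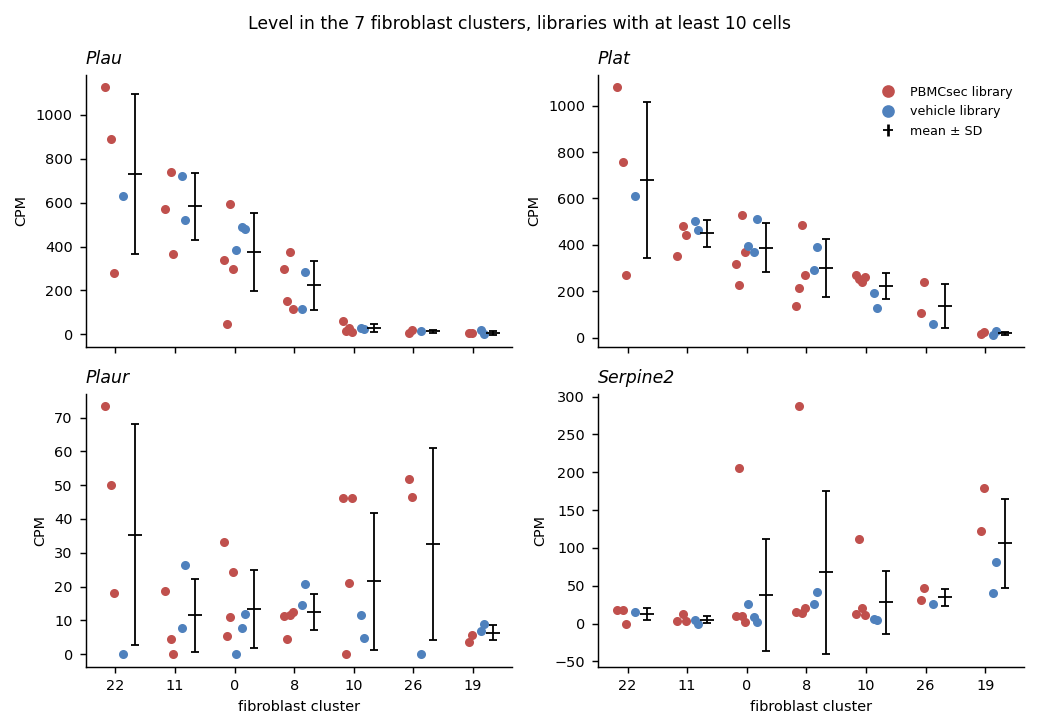
Level (CPM) of *Plau*, *Plat*, *Plaur* and *Serpine2* in the 7 FB clusters. Points are libraries with at least 10 cells of the cluster, and bars are mean ± SD. In cluster 10, *Plau* averaged 28.7 CPM and *Plat* 223 CPM.

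As a description, the pattern of each gene was compared with 11550 others as Pearson's r of log2(CPM + 10) over the 35 clusters of at least 30 cells, which share libraries and depth. *Plau* and *Plat* had r = 0.78, and the other 9 pairs of the 5 genes lay between −0.20 and 0.33. The genes most like *Plau* were *Wnt2*, *Sfrp4* and *Ptgis* (r = 0.86 to 0.87), and those most like *Plat* were *Angptl2*, *Arhgap42* and *Ddah2* (0.87 to 0.88). For *Plaur* they were *Lst1*, *Snap23* and *Tlr2* (0.84 each), the last encoding a receptor for bacterial lipoproteins. For *Serpine2* they were *Nkd1*, *Nexn* and *Gjc1* (0.87 to 0.91), and for *Serpinb2* *Chit1*, *Klk11* and *Slc25a48* (0.91 to 0.93), of which *Klk11* encodes a kallikrein protease.

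Of 44 other genes of the pathway, 38 had a UMI. Plasminogen itself (*Plg*), the precursor made by the liver, gave 0 UMIs in the 6150 cells. Its surface binders were counted in every class. *S100a10*, which with *Anxa2* forms a plasminogen binding complex, gave 53909 UMIs and ranged from 63.3 CPM in neutrophils to 2101 CPM in TCs. *Anxa2* gave 50662 UMIs and was highest in KCs (1850 CPM), and *Hmgb1*, a nuclear protein that also binds plasminogen, gave 28017 UMIs and was highest in HFs (791 CPM). Among the other inhibitors and genes related to them, *Serping1*, the C1 inhibitor, gave 23390 UMIs and was highest in FBs (1723 CPM). *Serpinb5*, the epithelial serpin maspin, gave 15002 UMIs and was highest in KCs (1035 CPM), as was *Serpinb2*. *Serpini1*, neuroserpin, gave 119 UMIs. *Lrp1*, the receptor that clears activator and inhibitor complexes, was highest in FBs (606 CPM) and at 227 CPM in macrophages. The integrin subunit *Itgb1* was counted in all 13 classes and was highest in SMCs/PCs (872 CPM), and *Egfr* was highest in FBs (203 CPM). Among the targets, *Fn1* (5700 CPM), *Mmp2* (1531 CPM) and *Mmp14* (937 CPM) were all highest in FBs, as were both activators.

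With PBMCsec, no change passed the test for any of the 5 genes in any class. FBs, HFs, TCs and DC/MAC had at least 10 cells in all 8 libraries and were tested on UMI counts summed per library with edgeR's quasi-likelihood test. The call was a Benjamini-Hochberg adjusted p under 0.05 over all genes tested in the class. No gene was called among 9405 in FBs, 9703 in HFs, 4260 in TCs, 5592 in DC/MAC and 13182 in all kept cells (0% in each). An unadjusted p under 0.05 was found for 2.35% of the genes in FBs, 3.78% in HFs, 3.31% in TCs, 4.60% in DC/MAC and 2.54% in all kept cells. DESeq2 called 8 genes in DC/MAC, 8 in all kept cells and 0 in FBs, HFs and TCs, none of the 5. In FBs DESeq2 gave no adjusted p for *Serpine2* (log2 fold change 1.35) and *Serpinb2* (−2.70), so it could not call them. Every fold change below is log2 PBMCsec minus vehicle, the levels are scaled by TMM, and each adjusted p from edgeR was 1.0. The smallest p that the exact two-sided permutation test of 4 against 4 libraries can give is 0.0286. The filter on low counts let all 5 into the test in FBs and in all kept cells, 3 in HFs (*Plau*, *Plat* and *Serpinb2*), 2 in DC/MAC (*Plau* and *Plaur*) and none in TCs, where 2.30% of the genes tested had groups that did not overlap.

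*Plau* in FBs measured 359, 112, 463 and 209 CPM in PBMCsec 1 to 4 and 438, 170, 277 and 311 CPM in vehicle 1 to 4. The groups overlapped fully, the log2 fold change was −0.06 (SE 0.39) and the exact permutation p was 0.771. *Plat* in FBs measured 309, 244, 443 and 319 CPM after PBMCsec and 289, 202, 280 and 362 CPM after vehicle. The values overlapped, with a log2 fold change of 0.20 (SE 0.25) and an exact permutation p of 0.429. Both activators had their highest FB values in PBMCsec 3 and low values in PBMCsec 2 and vehicle 2. In FBs the libraries of the groups did not overlap for 1.69% of all genes, and for none of the 5.

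*Plat* in HFs had the smallest unadjusted p of the 5 genes. It measured 40.4, 40.3, 29.5 and 60.7 CPM after PBMCsec and 41.3, 69.4, 56.1 and 78.5 CPM after vehicle. Only PBMCsec 4 lay above the lowest vehicle library, vehicle 1, which held only 10 HFs, and the groups overlapped. HF clusters 16 and 14, with pooled *Plat* at 140 and 115 CPM, each had under 10 cells in PBMCsec 1, PBMCsec 2 and vehicle 1. The part of the makeup of the HF class in the *Plat* values was not tested. In each of the 4 same-numbered pairs the PBMCsec library was the lower, by little in the first (40.4 and 41.3 CPM), as looked at after the values were seen. The labels give no source of a pairing, and the share of all genes with such pairs was not counted. Pairs are described only where all 4 went the same way, and in the other tests of the 5 genes with all libraries they split. The log2 fold change was −0.59 (SE 0.27), with an unadjusted p of 0.0453 from edgeR, an adjusted p of 1.0 and an exact permutation p of 0.143. In HFs 3.78% of all genes had an unadjusted p under 0.05, and the groups of libraries did not overlap for 2.35%. *Plau* in HFs was at 35.9 ± 12.7 CPM after PBMCsec and 28.0 ± 5.46 CPM after vehicle (n = 4 each), with a log2 fold change of 0.17 (SE 0.25). It was 0.02 without PBMCsec 2, the highest library at 55.0 CPM. SMC/PC markers summed over 8 genes in the HFs of that library were at 1804 CPM, against 34.6 to 347 CPM in the other 7. They include *Acta2* and *Tagln*, which also led unnamed cluster 2. *Plau* was at 71.9 CPM pooled in that cluster and at 15.1 CPM pooled in SMCs/PCs, from 3 UMIs. The part of such cells in the *Plau* value was not tested.

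*Plaur* was tested in FBs and DC/MAC; neutrophils were too few. In FBs it measured 32.8, 11.5, 18.2 and 20.4 CPM after PBMCsec and 16.5, 18.9, 8.40 and 17.4 CPM after vehicle. The groups overlapped, the log2 fold change was 0.68 (SE 0.38), and p was 0.0969 unadjusted from edgeR and 0.343 by the exact permutation test. In DC/MAC it measured 119, 65.6, 58.3 and 60.9 CPM after PBMCsec and 102, 73.2, 29.0 and 38.2 CPM after vehicle, again overlapping, with a log2 fold change of 0.46 (SE 0.40). It was 0.14 without PBMCsec 1, 0.14 without vehicle 3 and 0.93 without vehicle 1. *Plau* in DC/MAC was at 34.9 ± 6.06 and 38.1 ± 16.6 CPM (n = 4 each), a log2 fold change of −0.15 (SE 0.34). In DC/MAC the groups did not overlap for 2.56% of all genes. Neutrophil markers summed over 7 genes in DC/MAC ranged from 179 to 435 CPM after PBMCsec and from 97.1 to 408 CPM after vehicle, with *Ly6g* at 0, and their part in the *Plaur* values was not tested.

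For each inhibitor in FBs, 1 library lay far above the rest. *Serpine2* measured 41.5, 323, 21.6 and 30.6 CPM after PBMCsec and 24.8, 113, 13.8 and 18.8 CPM after vehicle. The libraries numbered 2 were the highest of each group, and the remaining 6 lay between 13.8 and 41.5 CPM. The log2 fold change was 1.80 (SE 0.96), with an unadjusted p of 0.0832 from edgeR and an exact permutation p of 0.486. It was 0.21 without PBMCsec 2 and 2.47 without vehicle 2. In each of the 4 same-numbered pairs the PBMCsec library was the higher, as looked at after the values were seen. The share of all genes with the same direction in every pair was not counted, and the labels give no source of a pairing. The log2 fold change of *Serpine2* was 0.68 with the libraries numbered 3 and 4 alone and 0.91 with the library number as a block. Neither was past the threshold (adjusted p 1.0 each from edgeR). In PBMCsec 2, 25 of 70 FBs held 197 *Serpine2* UMIs, and 1 of them held 79, whereas 17 of the 18 UMIs of vehicle 2 were in 1 of its 21 FBs. PBMCsec 2 was also the highest library in FB clusters 0, 8 and 10, at 205, 287 and 112 CPM. Markers of SMCs/PCs, summed over 8 genes in FBs, were at 288 CPM in PBMCsec 2, between 70.6 and 731 CPM over the PBMCsec libraries and between 35.7 and 1020 CPM over the vehicle libraries, and their part in the *Serpine2* values was not tested. *Serpinb2* in FBs was at 265 CPM in vehicle 2 and between 0 and 28.1 CPM in the other 7 libraries, a log2 fold change of −1.49 (SE 1.27). It was 0.78 without vehicle 2, where 3 of 21 FBs held all 42 UMIs. KC markers, summed over 8 genes in FBs, were at 262 CPM in vehicle 2 and between 146 and 421 CPM in all libraries, and their part in this value was not tested.

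In KCs, the main site of *Serpinb2*, vehicle 1 held only 6 cells, so KCs were tested without that library, as chosen after the cell counts were seen. *Serpinb2* measured 6339, 847, 4330 and 1826 CPM in PBMCsec 1 to 4 and 3731, 4413 and 2996 CPM in vehicle 2 to 4. The vehicle libraries lay within the range of the PBMCsec libraries. The log2 fold change was −0.15 (SE 0.48), with an adjusted p of 1.0 from edgeR and an exact permutation p of 0.60. No gene of 6501 was called in KCs, and 1.15% had an unadjusted p under 0.05. The lowest value, in PBMCsec 2, came from 11 cells, of which 3 were in cluster 15. In vehicle 2, at 3731 CPM, 13 of 15 KCs were there, and in PBMCsec 1, the highest at 6339 CPM, 31 of 63. The part of this makeup in the *Serpinb2* values was not tested. With up to 10% mitochondrial counts, which let all 8 libraries enter, the log2 fold change was 0.10 (SE 0.47), and none of the 5 genes was called (0.0143% of 6969 genes were), with 1.65% of all at an unadjusted p under 0.05. *Plau* in KCs was at 36.6 ± 10.8 CPM (n = 4) and 28.4 ± 6.21 CPM (n = 3), and *Plat* at 31.6 ± 15.7 and 47.2 ± 18.8 CPM. In HFs, *Serpinb2* was at 18.9 ± 20.2 and 7.10 ± 9.49 CPM (n = 4 each), with a log2 fold change of 0.86 (SE 0.71), which was 0.22 without PBMCsec 1, the highest library at 44.9 CPM.

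**Figure D4:**
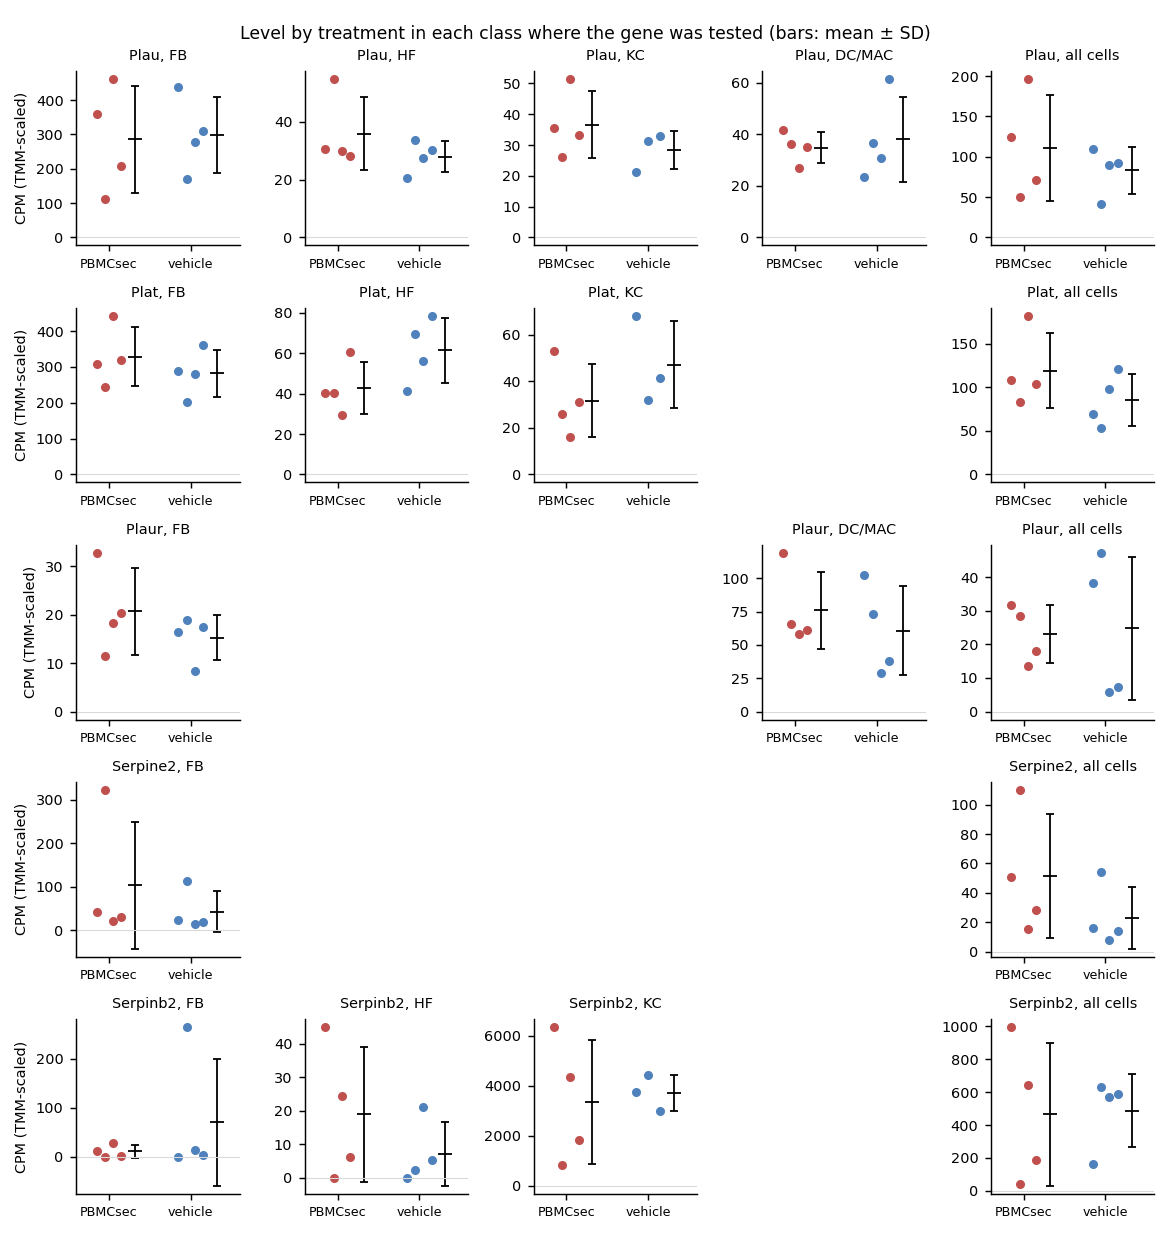
Level of each gene (TMM-scaled CPM) by treatment in every class where it was tested. Points are libraries and bars are mean ± SD. The groups overlap in every panel, and vehicle 1 is absent from the KC panels.

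Over all kept cells, fewer cells of a type and less RNA per cell cannot be told apart. *Plau* was at 111 ± 65.4 CPM after PBMCsec and 83.1 ± 29.1 CPM after vehicle (log2 fold change 0.42, SE 0.44), and *Plat* at 119 ± 43.2 and 85.5 ± 29.9 CPM (0.47, SE 0.31; n = 4 each). The 8 FB markers summed over all cells ranged from 11539 to 19095 CPM after PBMCsec and from 5633 to 10646 CPM after vehicle and did not overlap. The FB share of cells was 19.1 to 34.5% after PBMCsec and 10.1 to 21.7% after vehicle. The summed markers of KCs, SMCs/PCs, neutrophils, macrophages and ECs overlapped between the groups. Of single genes tested in all kept cells, 1.79% had groups that did not overlap, and no such share was counted for sums of genes. The part of FB content in the all-cell values was not tested. Within FBs the log2 fold changes were −0.06 and 0.20. *Plaur* was at 23 ± 8.61 and 24.7 ± 21.2 CPM (−0.02, SE 0.67), *Serpine2* at 51.2 ± 42.1 and 23 ± 21.0 CPM (1.19, SE 0.73) and *Serpinb2* at 466 ± 435 and 488 ± 219 CPM (−0.07, SE 0.80). For each of the 5 the groups overlapped. *Serpine2* measured 50.9, 110, 15.2 and 28.2 CPM in PBMCsec 1 to 4 and 16.2, 54.2, 7.84 and 14.0 CPM in vehicle 1 to 4, so that the PBMCsec library was the higher in each of the 4 same-numbered pairs. The pairs were looked at after the values were seen, and the labels give no source of a pairing. The share of all genes with the same direction in every pair was not counted. With the library number as a block the log2 fold change of *Serpine2* was 1.13 (adjusted p 0.891 from edgeR), and it was 0.50 without PBMCsec 2 and 2.04 without vehicle 2. SMC/PC markers summed over 8 genes were at 238, 941, 321 and 914 CPM after PBMCsec and at 84.2, 81.4, 459 and 619 CPM after vehicle. These markers include *Acta2* and *Tagln*, which also led unnamed cluster 2 (*Serpine2* at 1.33 CPM pooled), so the sum does not measure SMCs/PCs alone. The SMCs/PCs themselves were 7, 1, 12 and 5 cells in PBMCsec 1 to 4 and 0, 0, 4 and 8 cells in vehicle 1 to 4. The part of these markers or cells in the *Serpine2* level was not tested. *Plaur* was at 28.5 to 47.2 CPM in the libraries numbered 1 and 2 of both groups and at 5.81 to 18.0 CPM in those numbered 3 and 4. The summed neutrophil markers were at 529 to 3148 CPM in the former and 143 to 746 CPM in the latter, and their part in the *Plaur* level was not tested.

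**Figure D5:**
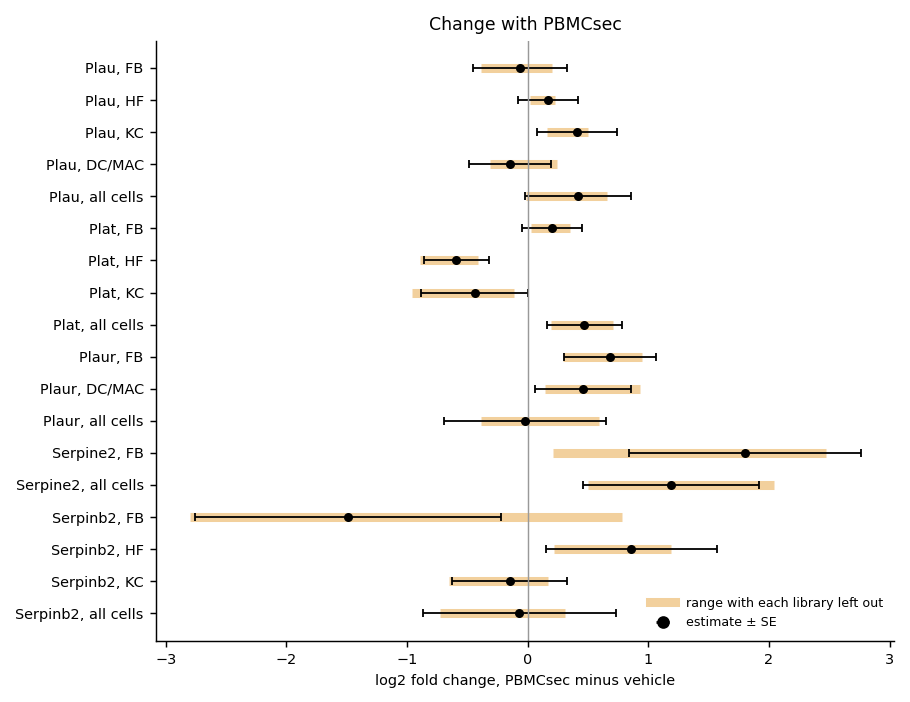
Log2 fold change (PBMCsec minus vehicle, horizontal axis) with SE for each gene and class, with the range when each library was left out in turn (shaded). *Serpinb2* in FBs ranged from −2.80 to 0.78 and *Serpine2* in FBs from 0.21 to 2.47.

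Whether a gene responded differently in a pair of classes was tested in 6 cases with the exact two-sided permutation test on the difference of log2 CPM within each library. The difference for *Plat* between FBs and HFs was 0.73 (response 0.21 in FBs and −0.52 in HFs), with an exact permutation p of 0.143 and an adjusted p of 0.743. For *Plau* it was −0.49 between FBs and HFs (exact permutation p 0.60) and 0.13 between DC/MAC and FBs (0.914). The largest difference was that of *Serpinb2* between FBs and HFs, at −1.89 (exact permutation p 0.371), and it was −0.19 without vehicle 2. The adjusted p of the 6 tests lay between 0.743 and 0.971.

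Of the 44 other pathway genes, none passed edgeR's adjusted threshold in any class. In FBs 24 were tested, of which 12 were higher and 12 lower after PBMCsec, with a median log2 fold change of 0.04 beside 0.00 over all genes. In HFs 18 were tested (12 higher, 6 lower; median 0.11 beside 0.01), in DC/MAC 14 (6 higher, 8 lower; −0.14 beside −0.01) and in TCs 10 (3 higher, 7 lower). In all kept cells 34 were tested (22 higher, 12 lower; 0.18 beside −0.02).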

How the data were processed

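Raw UMI counts of 8 libraries, 4 PBMCsec and 4 vehicle, were deposited by the authors for every barcode called as a cell, per the file headers and processing notes with Cell Ranger 3.0.2 and mm10, without normalization. The study's filter was used (500 to 4000 genes, up to 20000 UMIs, up to 5% mitochondrial counts), and *Gm42418*, *Gm17056* and *Gm26917* were removed. Cells were integrated and clustered in Seurat 5.3.0 (2000 variable genes without the 5 genes and their pathway list, 30 dimensions, resolution 1). A cluster was named from at least 3 fixed markers found in at least 25% of its cells at 2-fold or more, and stayed unnamed where classes tied or its 10 leading genes held more markers of another class. The rule was written with the clusters already known. Scrublet in scanpy 1.11.5 called 25 cells (0.407%), which is not a working call, and no doublets were removed.

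Levels were computed per library with at least 10 cells. Treatment was tested on counts summed per library and class with edgeR 4.0.16 (filterByExpr, TMM, treatment only), with DESeq2 1.42.0 as an alternative. Only the edgeR step was tested on simulated counts, at FB depth. There every gene had the same dispersion and no gene of low count was changed, so genes as variable as *Serpine2* in FBs were not covered. The SE of a fold change is its size divided by the root of the F statistic. Outside FBs and all cells, *Col1a1*, *Col1a2* and *Col3a1* were left out of the tests, and KC genes (*Krtdap*, *Krt1*, *Krt10*, *Krt5*, *Krt14*) in classes other than KCs and HFs. Classes with under 10 cells in a library were not tested, except KCs as stated. Same-numbered libraries deviated together in all kept cells (correlations 0.29 to 0.57). The correlations were 0.16 to 0.42 in TCs, 0.08 to 0.32 in DC/MAC, 0.02 to 0.43 in HFs and −0.02 to 0.21 in FBs. The main test did not use the library number, and the labels give no source of a pairing. The 5 genes and all lists were chosen with earlier results of these data known. Named are the 5 genes, the 3 pathway genes with the most UMIs per role, those past the threshold and the 3 genes most like each; the leading genes of clusters were named after their values were seen. Alternatives were size factors, DESeq2, filters, left-out libraries, the replicate block, library numbers, doublet scores and the mitochondrial limit. Analyses used R 4.3.3 and Python 3.11.15 with scipy 1.17.1.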

Additional observations from a re-analysis of the deposited data

Results flagged for a closer look

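Among 33 groups of 4 libraries, 6 had a library far from the other 3 (Dixon's test at the 95% level), where chance flags about 1 in 20 groups. *Serpine2* in FBs was at 323 CPM in PBMCsec 2 and at 113 CPM in vehicle 2, each the highest of its group. *Serpinb2* in FBs was at 265 CPM in vehicle 2, the library with the fewest FBs. *Plaur* in DC/MAC was at 119 CPM in PBMCsec 1 and *Plau* in HFs at 55.0 CPM in PBMCsec 2. *Serpinb2* in all kept cells was at 162 CPM in vehicle 1, where KCs were 3.97% of the cells.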

How the results depend on the processing

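No adjusted p of the 5 genes fell under 0.05 in 258 alternatives that gave one. The smallest was 0.352 from edgeR, for *Plat* in HFs without PBMCsec 4. All 45 alternative levels moved by less than 1 SD. Some fold changes turned direction, most of them small, but also that of *Serpinb2* in FBs (main value −1.49). At the 10% mitochondrial limit, *Plau* was at 0.05 in DC/MAC and −0.01 in KCs, *Serpinb2* at 0.10 in KCs and 0.14 in all cells, and *Plaur* at 0.25 in all cells. With the libraries numbered 3 and 4 alone, *Plau* and *Serpinb2* were at 0.21 and 1.02 in FBs and *Plaur* at 1.25 in all cells; with 1 and 2 alone, *Serpinb2* was at 0.38 in all cells. Without the filter, *Plaur* in all cells was at 0.03.

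With each library left out, *Plau* ranged from −0.31 to 0.24 in DC/MAC, −0.39 to 0.20 in FBs and −0.01 to 0.66 in all cells, *Serpinb2* from −2.80 to 0.78 in FBs, −0.73 to 0.31 in all cells and −0.65 to 0.17 in KCs, and *Plaur* from −0.39 to 0.59 in all cells. Without a turn of direction, *Plat* ranged from 0.03 to 0.35 in FBs, −0.89 to −0.41 in HFs, 0.19 to 0.71 in all cells and −0.96 to −0.11 in KCs. Likewise, *Plaur* ranged from 0.29 to 0.95 in FBs and 0.14 to 0.93 in DC/MAC, and *Serpine2* from 0.21 to 2.47 in FBs and 0.50 to 2.04 in all cells. So did *Plau*, from 0.02 to 0.23 in HFs and 0.16 to 0.50 in KCs, and *Serpinb2*, from 0.22 to 1.19 in HFs. The last range rests on 6 left-out libraries, since *Serpinb2* in HFs failed the filter on low counts without PBMCsec 3 or vehicle 3. The response differences ranged from −0.27 to 0.53 for *Plau* in DC/MAC against FBs, −0.86 to 0.11 for *Plau* in FBs against HFs and −0.20 to 0.26 for *Plaur* in DC/MAC against FBs. Calls over all genes ranged from 0 to 1 in DC/MAC, 0 to 1 in HFs and 0 to 2 in TCs.

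Blocking on the library number (replicate block) put *Plaur* in all cells at 0.39 and gave 6 called genes in DC/MAC and 8 in TCs, and changed no call of the 5 genes. The count of called genes was 8 with DESeq2 in DC/MAC and 8 in all cells. Without the filter on low counts it was 108 in DC/MAC and 35 in TCs. It was 7 in DC/MAC and 2 in FBs with the libraries numbered 1 and 2 alone, 1 in DC/MAC and 1 in HFs with 3 and 4 alone, and 1 in DC/MAC without the highest doublet scores. The cause was not tested.

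Thinning to 1000 UMIs, which lowers detection by construction, gave shares of 25.3% for *Plau* and 26% for *Plat* in FBs, 44.1% for *Serpine2* in unnamed cluster 27 and 55.3% for *Serpinb2* in KCs. Classes with fewer than 10 cells in a library were too small to test, so that *Plaur* in neutrophils and *Serpine2* in SMCs/PCs and unnamed cluster 27 were not tested by treatment.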

Other observations

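The 5 genes were also counted in the barcodes that the filter removed, most of them for mitochondrial counts over 5%. There *Plau* was at 43.5 to 86.6 CPM after PBMCsec and 43.6 to 179 CPM after vehicle, *Plat* at 65.2 to 91.2 and 58.6 to 119 CPM, and *Plaur* at 5.0 to 13.2 and 6.56 to 10.2 CPM. *Serpine2* was at 7.54 to 26.4 and 5.54 to 41.2 CPM, and *Serpinb2* at 76.3 to 369 and 48.3 to 381 CPM. The groups overlapped for each gene, and the highest *Plau*, *Plat* and *Serpine2* levels were in vehicle 1.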
